A study of Drosophila melanogaster with 3 samples.

Results

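Oaz encodes a C2H2 zinc finger protein, and in the list of Col binding summits it carries 6 of the 559 summits, among them the highest of all. Its summits were taken as all entries of the list whose gene label reads Oaz. The gene was singled out for its number of summits and for the height of the highest one, so the values that chose it, its labels and fold enrichments, are given as a description, with no test. Chromatin came from whole Drosophila embryos of stages 13 and 14, which carried a lacZ reporter under a modified col control region. It was precipitated with a mix of 3 home made monoclonal antibodies against Col (Col-IP) or, as a mock, with the antibody HA.11 Clone 16B12 against the HA tag (mock-IP), and the labels also name a library of input DNA made without antibody. Pooled IPs gave 1 library for Col and 1 for the mock, with reads of 54 bases, so there were no replicates. The whole embryo was used, and the list does not tell in which cells Col was bound.

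Collier (Col, also named Knot, gene symbol kn) is the only fly member of the COE family of transcription factors, which bind DNA as dimers at a palindromic sequence with the core CCCNNGGG. It is known for its roles in the head, in dorso-lateral muscles, in the lymph gland and in selected neurons. Oaz is the fly relative of the vertebrate O/E-associated zinc finger protein, which binds EBF proteins, the vertebrate relatives of Col, and in vertebrates also works with SMAD proteins of the BMP pathway. In the fly, Oaz is known for a part in forming the posterior spiracles, the openings of the tracheal system.

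The form of a Col site is shown first, with the listed 15-base sites at the 4 highest summits that are not on the chromosome arm of Oaz. The sites were found by a motif search around the summits, and capitals mark the 8 positions of the core.
Sep4: aatgCCCATGGGaat
Smr: aattCCCCAGAGaac
Fas1: tcttCCCCGGGGagt
Osi21: tttcCCCAAGGGagc
The Sep4 site (chromosome X, 16583782 to 16583796, dm3) held all 6 specified bases of the core, and so did those of Fas1 (chromosome 3R, 12455735 to 12455749) and Osi21 (chromosome 2L, 11297637 to 11297651). The Smr site (chromosome X, 12630284 to 12630298) held 5. Of the 12 specified bases in the longer sequence that EBF selects in vitro, these sites held 11, 10, 10 and 8 in the order Sep4, Smr, Fas1 and Osi21. The sites at Oaz are described below by the same counts.

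All 6 Oaz summits lay on chromosome arm 2R (dm3 coordinates throughout), within 16920 bp. The value of a summit is the fold enrichment that the peak caller SISSRs assigned to it, a ratio over a background not named in the sources used here. From the lower to the higher coordinate, the first summit stood at 10323252 with a fold enrichment of 8.51. The second, at 10325312, had 16.17. The next 2 were low, with 2.23 at 10327302 and 2.15 at 10327672. The fifth, at 10333612, had 2.02, the lowest of the 6. The last, at 10340172, had 5.12, and it is the one that the study cloned for its reporter Oaz_Col. The study reports that this reporter was active in dorso-lateral muscles and that mutating its Col site abolished the activity. For the Oaz gene itself, it lists expression overlapping that of Col as not detected. Of the Oaz summits it analysed this one alone, picked for a site well conserved between Drosophila species. In the study's table the first summit is classed as upstream (5' side) and the other 5 as intragenic.

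**Figure D1:**
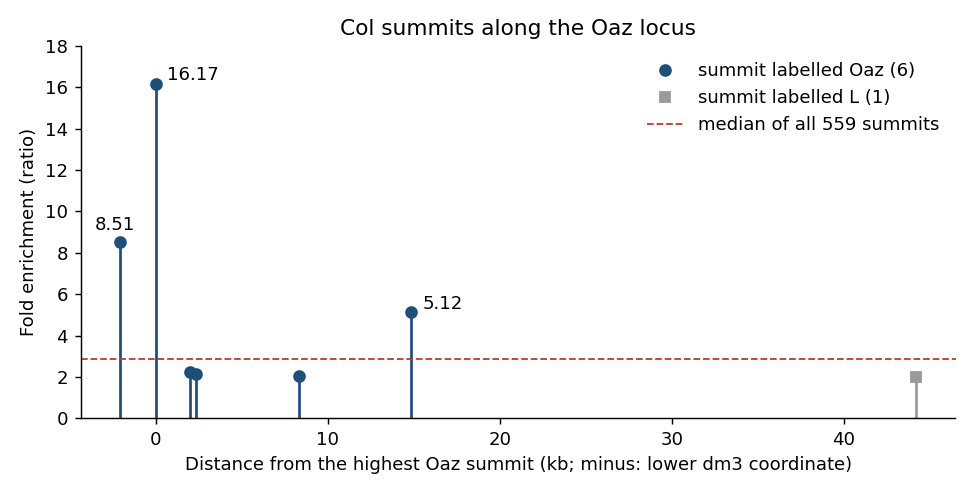
Fold enrichment (ratio) of the 6 Oaz summits (circles) against their distance in kb from the highest one, with the nearest other summit, labelled L (square), and the median of all summits, 2.85 (dashed line). The 3 summits at 16.17, 8.51 and 5.12 stand above the median, and the 3 at 2.23, 2.15 and 2.02 below it.

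The heights fell into an upper and a lower set, with nothing between 2.23 and 5.12. The highest summit was 5.67 times the median of all summits, 2.85, and 1.53 times the second highest summit of the list, that of Sep4 at 10.58. The first summit, at 8.51, had rank 6 of all and reached 2.99 times that median. At 5.12 the cloned summit had rank 61, above 88.9% of the list. The lower set sat near the bottom of the list, where the lowest summit had 1.94. The summit of 2.23 was above 15.4% of all summits, that of 2.15 above 10.2% and that of 2.02 above 3.58%.

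A fold enrichment of at least 5 was reached by 3 of the 6 Oaz summits, and by 11.6% of the 553 summits of other labels. The same 3 were those that reached 3, as 44.8% of the summits of other labels did. The median of the 6 was 3.675, a value at which no Oaz summit lay, against 2.85 over the list. Without the highest summit it was 2.23, below the median of the list. Oaz took 2 of the 10 highest places, and the others belonged to Sep4, px, Smr, Fas1, Osi21, cnc, CG12541 and wge with 1 each. Of the 7 labels with a summit of 8 or more, Oaz was the only one with a pair of them.

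**Figure D2:**
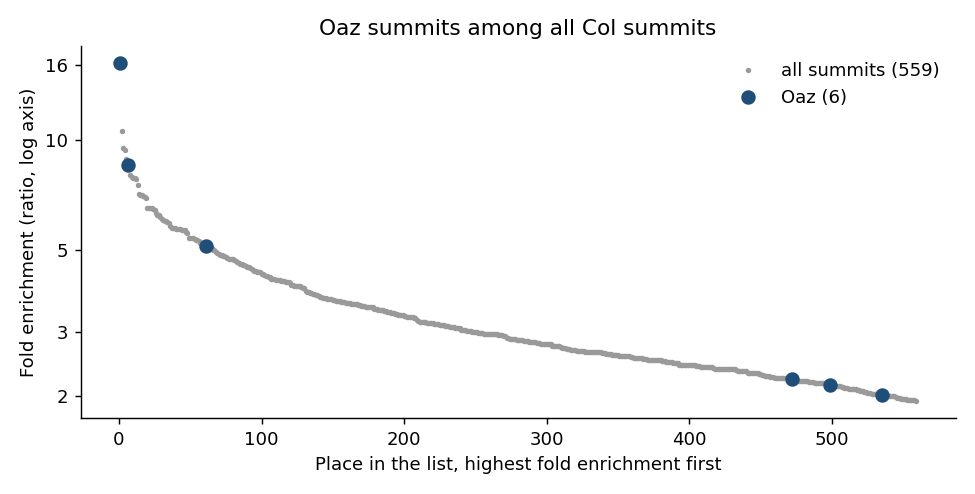
Fold enrichment (ratio, log axis) of all 559 summits against their place in the list, with the 6 Oaz summits as large circles. The Oaz summits take ranks 1, 6 and 61 at the upper end and ranks 472, 498 and 534 at the lower end.

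The first 4 summits crowded into 4420 bp. The highest summit lay 2060 bp from the first and 1990 bp from the third, so that it had a neighbour at nearly the same distance on each side, one high and one low. The third and the next were 370 bp apart, and the centres of their listed sites 432 bp. The fifth followed after 5940 bp and the last after a further 6560 bp. All 5 gaps at Oaz were under 10000 bp. Over the arm, 32 of the 117 gaps between neighbouring summits were (27.4%, those of Oaz included), and the median gap was 52980 bp. The arm gaps include those between different genes, so they are not a like comparison for gaps within a label. Of the 13 labels with 4 or more summits, snky (4420 bp) and CG14872 (5660 bp) alone had a largest gap shorter than that of Oaz. Among the 13 labels with 4 or more summits, sli alone packed 4 of them into a shorter stretch, 2430 bp.

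A label of 5 or more summits was found for 6 of the 409 labels (1.47%), and sick and sli had more summits than Oaz. At sick, which encodes a regulator of the actin cytoskeleton, the 9 summits were spread over 105600 bp and ran from 2.19 to 4.1. At sli, the gene of the Slit guidance protein, the 7 summits lay within 28730 bp and ran from 2.2 to 7.51. The 5 summits of olf413 ran from 2.34 to 3.95. Those of hth, a homeodomain cofactor of Hox proteins, ran from 2.42 to 3.57, and those of CG34380 from 1.95 to 3.11. The highest summit of each of these 5 labels was thus below the first Oaz summit, and 4 of the 5 stayed below the cloned one too, with sli as the exception. The lowest summits of all 6 labels were close to each other, between 1.95 and 2.42.

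Of the 95 labels with 2 or more summits, Oaz had the widest range. Its highest summit was 8.00 times its lowest, against a median ratio of 1.45 over these labels. This rank follows in part from the choice of Oaz by its number of summits and its highest one. A ratio of highest to lowest also tends to rise with the number of summits, and many of these labels had only 2. The label px came next with a ratio of 4.23 and sli followed with 3.41. Without its highest summit, the ratio at Oaz was 4.21. The ratio of px also hung on its highest summit, 9.48, as its second was 3.46 and its lowest 2.24. Only Oaz and jing, another C2H2 zinc finger gene, had 3 summits of 5 or more, and their patterns differed. The 4 jing summits ran from 4.94 to 6.06 (ratio 1.23), over 60870 bp, whereas those of Oaz joined the highest summit of the list to some of its lowest. These ratios compare single values from 1 library, and the error of a fold enrichment could not be measured.

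**Figure D3:**
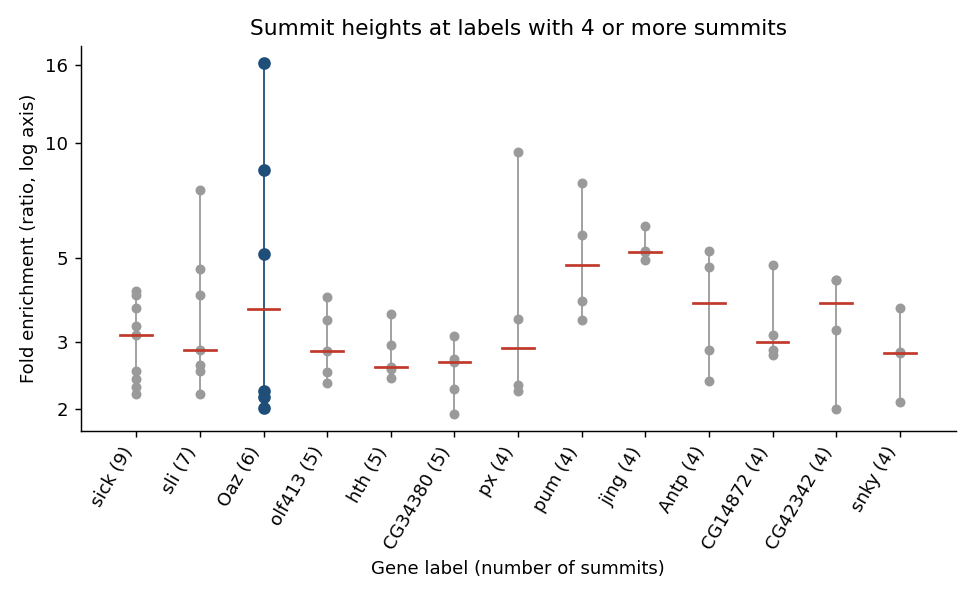
Fold enrichment (ratio, log axis) of each summit at the 13 labels with 4 or more summits, with the number of summits in brackets, a line from the lowest to the highest and a bar at the median. Oaz (large circles) reaches from 2.02 to 16.17, while jing stays between 4.94 and 6.06 and sick between 2.19 and 4.1.

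A listed site had its centre within 100 bp of all 6 Oaz summits, as at 97.0% of all summits. The study searched for motifs only up to 100 bp on each side of a summit, so no listed site could lie farther away. At the highest summit the site, from 10325365 to 10325379, held all 6 bases of the core and 10 of the 12 in vitro bases, and its centre lay 60 bp to the right. At the first summit the site, from 10323156 to 10323170, held 5 of the 6 and 10 of the 12 and lay 89 bp to the left. The site of the cloned summit, from 10340168 to 10340182, held all 6 and 10 of the 12, with its centre 3 bp away. These 3 sites match the in vitro sequence as well as those printed for Smr and Fas1.

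The sites of the lower set held fewer of the in vitro bases. At 10327302 the site held 4 bases of the core and 6 of the 12, 37 bp to the left of the summit. The site at 10327672 held 5 of the core and 5 of the 12, 25 bp to the right. At 10333612 it held 5 and 9, 21 bp to the left. All 3 sites of the upper set thus held 10 of the 12 in vitro bases and none of the lower set did, while 14.6% of all sites held 10 or more. The site at 10333612 missed that count by 1 base, and its 9 were above the median of 8 over all sites. The core count did not part the sets, since the site of the first summit held 5, as did those at 10327672 and 10333612. Over the whole list, that share was 38.8% at a fold enrichment of 5 or more, 13.6% between 3 and 5 and 9.73% under 3. The full core was present in 2 of the 6 Oaz sites and in 42.6% of all sites. The search that listed the sites picked them by a motif of the same form, so a good match was in part what put a site on the list.

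The highest summits at Oaz were not those nearest to their sites. Both of the 2 highest had a site more than 50 bp away, a distance found at 16.8% of all summits with a site and at 16.4% of those with a fold enrichment of 5 or more. Among the 10 highest summits, Fas1 was the only other one, with a site 60 bp away. Sites within 25 bp were found at 3 of the 6 Oaz summits, the cloned one and 2 of the lower set, and at 64.4% of all summits with a site. The search listed at most 1 site for each window, so a second site nearer to a summit would not be seen in these data.

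**Figure D4:**
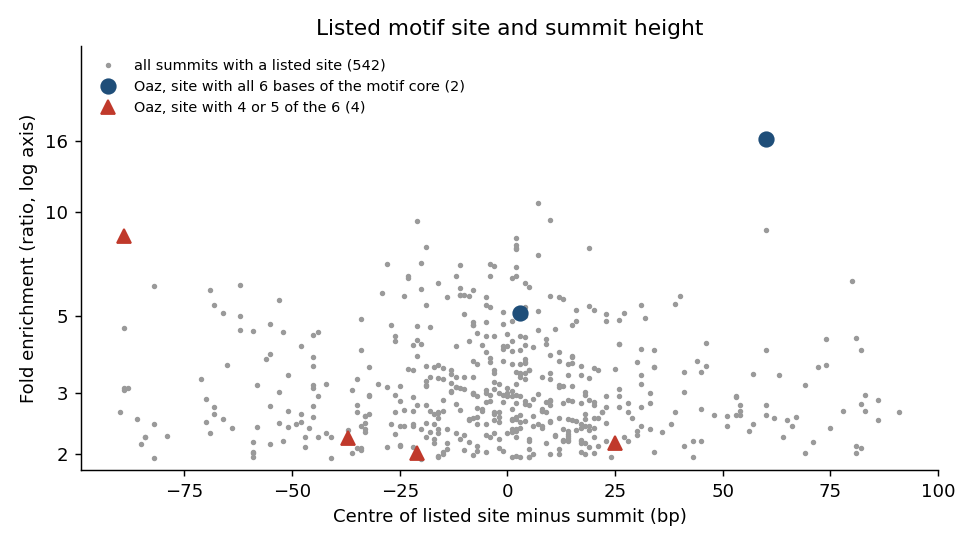
Fold enrichment (ratio, log axis) against the centre of the listed site minus the summit in bp, for the 542 summits with a site (dots) and the 6 of Oaz. Large circles are Oaz sites with all 6 bases of the core (60 and 3 bp away) and triangles those with 4 or 5, and the summits of 16.17 and 8.51 both lie more than 50 bp from their site.

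Within 100 kb on either side of its outermost summits there was 1 summit of another label, named L, 29330 bp beyond the last one at 10369502, with a fold enrichment of 1.97. The study's table gives this summit a gene identifier other than that of Oaz. The name needs care, since the current RefSeq table (Release 6) uses L as the symbol of the gene CG42702, with Oaz among its older names, and lists L as an older name of 2 other genes. One of these, PRAS40, is the next protein-coding gene beyond Oaz in that assembly. The summit was therefore not counted for Oaz. On the other side, the next summit was that of Shroom at 10221882, 101370 bp away, with 3.54. In Release 6, phyl is the protein-coding neighbour of Oaz on the side of lower coordinates, and no summit was labelled phyl.

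The gene of Col itself, kn, lies on the same arm, 346920 bp from the last Oaz summit. Its 3 summits had fold enrichments of 3.55 at 10687092, 3.26 at 10688182 and 2.66 at 10690402. All 3 fell between the upper and the lower set of Oaz, as most of the list did. Their listed genomic sites held 5, 4 and 4 bases of the core and 8, 6 and 8 of the 12 in vitro bases. In the in vitro count, that was less than any site of the upper set at Oaz. The kn summits spanned 3310 bp. In the embryos, the reporter held a copy of a kn control region with its Col motif changed to the in vitro consensus. Reads from this copy may map to kn. Recombinant Col used for elution also left plasmid DNA, which the authors removed by sequence analysis. What these added to the kn values was not tested.

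Oaz belongs to the C2H2 zinc finger factors. In a chosen list of 60 other genes of this kind, which is not the whole class, 13 had at least 1 summit (21.7%). Of the 13962 protein-coding genes in the RefSeq table, 2.92% did. Their 18 summits ran from 2.05 to 6.33 with a median of 3.4. None reached either of the 2 highest summits of Oaz, but hardly any summit of the list did. Those 2 had ranks 1 and 6 of all 559, and the highest was part of the reason for choosing Oaz. A fold enrichment of 5 or more was found for ci, the effector of Hedgehog signalling, for jing and for nerfin-1 (5.59), a factor of nascent neurons. The 2 ci summits, of 6.33 and 5.7, lay 70 bp apart with the same nearest listed site, and were counted singly here. The neuroblast factor wor and the mesodermal and neuronal factor zfh1 had 4.02 each. The remaining 8 genes, luna, tsh, gl, ush, cas, sens-2, noc and disco, had 1 or 2 summits each, between 2.05 and 2.78.

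In the BMP pathway, in which the vertebrate relative of Oaz takes part, 2 of 24 genes had a summit (8.33%, beside the same 2.92% of all protein-coding genes). The receptor gene tkv had 4.24 and dally, which encodes a heparan sulphate proteoglycan that binds the ligand Dpp, had 2.77. Neither the ligand genes dpp, gbb and scw nor the SMAD genes Mad, Med and Smox were named by a label. Among 11 factors of the posterior spiracles, 5 had a summit (45.5%, beside 2.92%). These were vvl with 3.45, nub with 3.17 in a label shared with pdm2, ems with 2.52, trh with 2.37 and Abd-B, the Hox gene that starts spiracle formation, with 2.24. All 5 lay between the upper and the lower set of Oaz, Abd-B only just. Most of the list did so too, since 88.9% of all summits were below 5.12 and 15.4% below 2.23. The lists hold genes of choice and not a random sample. The study found transcription regulators enriched among its targets as a whole, which it says may partly reflect larger regulatory regions of developmental genes. The shares of these lists, C2H2 factors included, were not set beside that of transcription factors in general. A gene without a label may still have had weaker binding, or binding assigned to a neighbour.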

How the data were processed

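ChIP-seq summits of the pooled Col-IP library were used as deposited. According to the labels and the methods, the authors aligned the reads with Bowtie 0.12.7 to dm3 and called peaks with SISSRs at lenient thresholds, keeping one read per coordinate. They labelled each summit with a gene by PeakAnalyzer, with some curation. Each deposited entry holds a position and a fold enrichment, a linear ratio. Positions fall on a 10 bp grid. The list has no read counts, so the depth behind a value is unknown. The mock-IP and input libraries were not analysed here.

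Summits were matched to the sites listed in the study's supplement, of which only sequence and place were used, by a centre within 100 bp. Core and in vitro matches were counted over 6 and 12 specified bases. Of 414 gene names, 408 were matched to RefSeq (Release 6), used for names and neighbours alone. The genes named are Oaz, kn, labels with 5 or more summits, the 10 highest summits, labels within 100 kb and the genes with a summit from the gene lists. Others (px and jing in the comparison of ranges, Shroom, phyl, PRAS40, the labels in the plot of heights and genes without a summit) were chosen after their values were seen. The members, lists and comparisons were chosen with earlier results of these data known. No test was run, since there was 1 library per condition. Alternatives were a minimum of 3, merging, windows and distances. Python 3.11.15, scipy 1.17.1 and matplotlib 3.10.9 were used, and the joining was checked on simulated data.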

Additional observations from a re-analysis of the deposited data

How the results depend on the processing

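A minimum fold enrichment of 3 left 3 Oaz summits and a ratio of highest to lowest of 3.16, as dropping the lower set must, with the span unmoved at 16920 bp. Merging within 500 bp left 5 summits and raised the median to 5.12, and merging within 200 bp left all 6. Without the highest summit the ratio was 4.21 and the median 2.23, which turned from above to below the median of all summits, 2.85. A window of 200 kb held 3 summits of other labels near Oaz, in place of 1. With 1 mismatch allowed in the core, 5 of the 6 sites passed, in place of 2. Most sites of the whole list also held 5 or 6 of the core bases, so this count is not particular to Oaz. Shortening the reach to 50 bp left a site at 4 of the 6 summits, and lost those of the 2 highest. No paired analysis was possible because neither antibody had more than 1 library, and without read counts or replicates the precision of a fold enrichment is unknown.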
